A study of Mus musculus with 59 samples.

Results

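Oxidative phosphorylation is carried out by 5 protein complexes of the inner mitochondrial membrane, and the data described here are the RNA levels of their nuclear genes in mouse embryonic stem cells (ESCs) and in embryoid bodies (EBs). The genes were chosen by symbol alone: subunits of complex I (Nduf), complex II (Sdh), complex III (Uqcr), complex IV (Cox4 to Cox8) and ATP synthase (Atp5). The choice gave 88 genes of the 24391 listed. By symbol, 37 were placed in complex I, 8 in complex II, 8 in complex III, 18 in complex IV and 17 in complex V. The complex IV subunit gene Ndufa4 and its relative Ndufa4l2 are thereby counted in complex I throughout. Of the 88, 81 encode subunits, and 7 matched by name only: the complex II assembly factors Sdhaf1 to Sdhaf4, Atp5s, Atp5sl and Cox7a2l. Genes encoded in mitochondrial DNA were not among the genes listed.

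Electrons from NADH enter the chain at complex I and those from succinate at complex II. They pass through complex III and cytochrome c to complex IV, which reduces oxygen, while complexes I, III and IV pump protons and complex V uses the gradient to make ATP. Several subunits of complex IV have tissue isoforms: Cox4i2, Cox6a2, Cox6b2, Cox7a1, Cox7b2, Cox8b and Cox8c are alternatives to the broadly used Cox4i1, Cox6a1, Cox6b1, Cox7a2, Cox7b and Cox8a. Naive ESCs are known to use both respiration and glycolysis, and to lean more on glycolysis as they move towards the primed state.

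RNA was measured by poly(A) RNA-seq in 59 libraries from 6 conditional ESC lines that all carry ERT2-Cre, a recombinase switched on by 4-hydroxytamoxifen (4-OHT). Controls were the same line without 4-OHT. ESCs were grown with LIF and 3 inhibitors (SU5402, PD184352 and CHIR99021) on mouse embryonic fibroblast (MEF) feeders, and EBs were made by leaving these out for 2 days on low-attachment dishes. The Pcgf1 line (Pcgf1f/f, Pcgf1delta/delta after 4-OHT; PCGF1 is the defining subunit of a variant Polycomb repressive complex 1), whose mutants received 4-OHT 2 days before EB formation, had 19 libraries: 4 control ESC, 5 Pcgf1-KO ESC, 5 control EB and 5 Pcgf1-KO EB. The pm line had 8, 2 in each group. It is Ring1apm/pm throughout, so its controls also lack RING1A activity, and 4-OHT turns its Ring1b into Ring1bpm/pm, which removes the ubiquitin ligase activity of both proteins. The other 4 lines had 8 libraries each: Ring1A/B (Ring1a-/- also in the controls, Ring1bf/f to Ring1bdelta/delta), Pcgf2/4 (Pcgf2f/f;Pcgf4f/f), Pcgf3/5 (Pcgf3f/f;Pcgf5f/f) and Pcgf6 (Pcgf6f/f). Each genotype is represented by a single line, and nothing in the labels says that replicates were separate cultures, so p-values measure only the spread between these libraries.

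Values are TPM, the number of transcripts of a gene in 1000000 transcripts of a library, a level per length, so the read depth behind them is unknown. For 21 of 32 libraries, the stage or state in the label differed from that in the name of the deposited data: 4 libraries in the Ring1A/B line, 6 in Pcgf2/4, 5 in Pcgf3/5 and 6 in Pcgf6. In these 32 libraries, the summed level of the ESC marker list was 316 to 2756 TPM in those labelled ESC and 431 to 2688 TPM in those labelled EB, so the labels did not separate them. Grouped by the names it was 1466 to 2756 TPM in those named ESC and 316 to 1304 TPM in those named EB. The EB marker list was at 46.4 to 117 TPM and 395 to 1091 TPM in the same order, so the names separated both lists. The labels were kept and those libraries are called "labelled". By these markers a labelled group can hold libraries of the other stage, so no direction is drawn from them. In the Pcgf1 and pm lines all 27 libraries matched, and the results below rest on these. In the Pcgf1 line all 7 ESC markers were lower and all 5 EB markers higher in control EBs than in control ESCs (adjusted p under 0.05). Pcgf1 itself was at 7.3 to 16.6 TPM in its control libraries and 0.6 to 2.8 TPM in the Pcgf1-KO libraries; the point mutations of the pm line could not be checked from levels.

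Ndufs5, a small accessory subunit of complex I, was listed at 0 in all 59 libraries. Since cells in general use this gene, and these files hold no counts, the 0 may be a failed estimate and is not read as a level. Sco2, an assembly factor of complex IV, was also listed at 0 throughout. For Ndufs5 no comparison was made, and the other 87 genes had a value above 0 in at least 1 library of each line. Of the 88, 82 were above 0 in every library. The most abundant member of Pcgf1 control ESCs was Atp5b, the catalytic beta subunit of ATP synthase, at 2379 TPM ± 137 (SD, n = 4). Atp5a1, the alpha subunit, followed at 1320 TPM ± 74. These levels do not overlap, whereas those of the genes next in order do: Cox4i1 (697 TPM ± 179), Cox7c (649 TPM ± 383), Cox6a1 (602 TPM ± 115), Atp5g2 (566 TPM ± 183), Atp5g3 (532 TPM ± 304), Cox8a (494 TPM ± 241), Cox5a (441 TPM ± 275) and Cox6c (418 TPM ± 238).

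In Pcgf1 control ESCs, the mean level of each of the 7 alternative isoforms of complex IV was below that of its partner. Cox4i2 averaged 5.89 TPM, Cox7b2 and Cox8b 0.86 TPM each, Cox8c 0.26 TPM and Cox6a2 0.09 TPM. Cox6a2 and Cox8b were under 10 TPM in every library of the series. Cox6b2 and Cox7a1, known from testis and from heart and muscle, were at 113 to 184 TPM and 31.3 to 88.6 TPM in the 4 control ESC libraries.

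Summed by complex, Pcgf1 control ESCs held 0.441% of all TPM in complex I, 0.0792% in complex II, 0.177% in complex III, 0.468% in complex IV and 0.750% in complex V. Control EBs held 0.435%, 0.0708%, 0.165%, 0.396% and 0.723% in the same order. The sum over all members was 1.91% ± 0.61 (SD, n = 4) in control ESCs, 2.02% ± 0.62 (n = 5) in Pcgf1-KO ESCs, 1.79% ± 0.50 (n = 5) in control EBs and 1.87% ± 0.54 (n = 5) in Pcgf1-KO EBs. These groups overlapped throughout.

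The spread within those groups followed the replicate number. In the Pcgf1 line, the libraries of replicates 2 and 3 held 1.21 to 1.44% of their TPM in the members, and those of replicates 1, 4 and 5 held 2.11 to 2.56%. Complex IV made 17.0 to 21.4% of the member sum in replicates 2 and 3 and 22.5 to 27.2% in the others, whereas complex V made 42.1 to 46.0% against 35.3 to 40.0%. The 84 cytosolic ribosomal protein genes moved the same way, with 7.94 to 9.54% of TPM against 17.3 to 20.2%. So did the 74 mitochondrial ribosomal protein genes, with 0.362 to 0.517% against 0.538 to 0.669%. The glycolysis list overlapped, at 1.08 to 2.13% against 1.13 to 1.89%. Replicates 2 and 3 also form a run of library identifiers of their own in the file headers, and the gap between the runs is wider than any between the 4 group means. What sets the libraries apart was not tested.

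**Figure D1:**
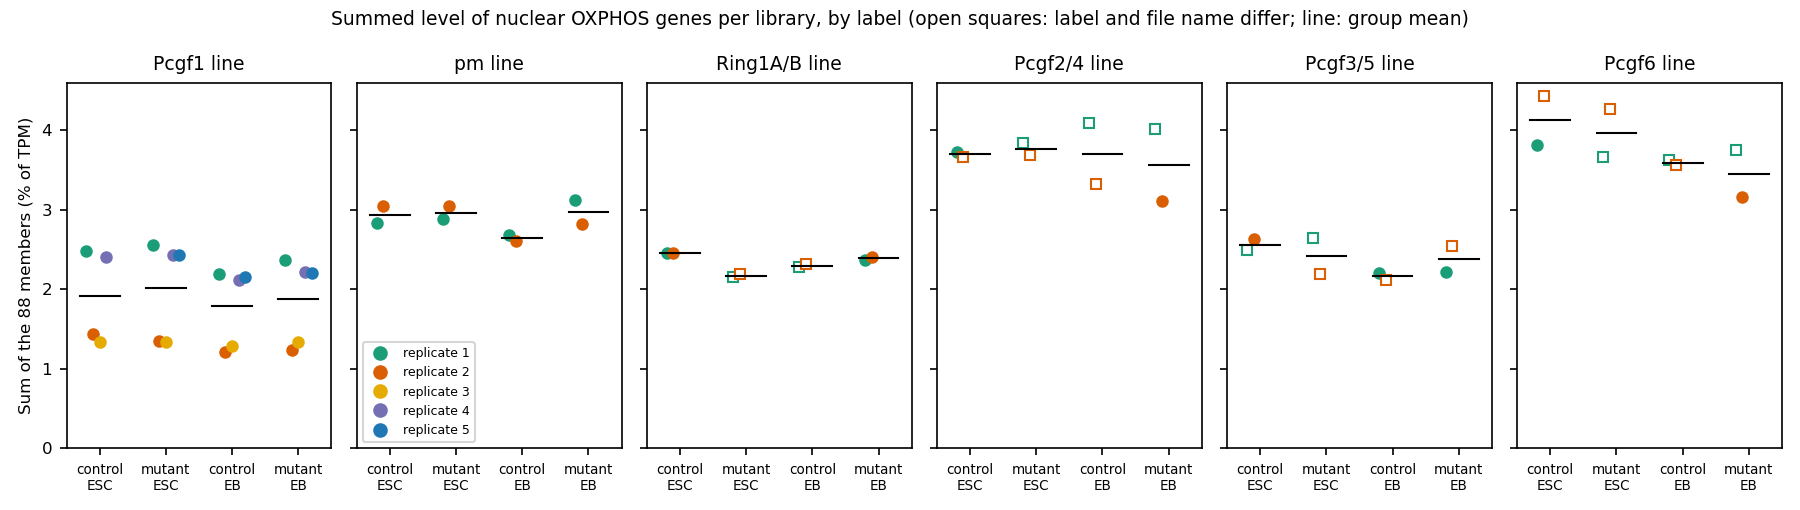
Summed level of the 88 members in percent of all TPM (vertical axis) for each of the 59 libraries, grouped by line and by labelled stage and state. Each point is 1 library, coloured by replicate number, lines are group means, and open squares are libraries whose label and data name differ. In the Pcgf1 line, replicates 2 and 3 lie between 1.21 and 1.44% and the other replicates between 2.11 and 2.56%, in every group.

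Libraries of the same number deviated together from their group means in the Pcgf1 line (pairwise r 0.317 to 0.653), so a fit with the replicate number as a block is given beside the fit without it. This r was taken over same-numbered libraries only, so it cannot tell a shared number from a shared library run. Within a group, replicates 4 and 5 were also closer than any others: over the members, the median absolute log2 difference was 0.0538, 0.0876 and 0.0572 between them, 0.138 to 0.198 between replicates 2 and 3, and 0.897 to 1.24 between either of these and replicates 1, 4 or 5. Without depth, it could not be tested whether replicates 4 and 5 differ beyond counting error. Counts of members called are therefore also given with the TPM of replicates 4 and 5 averaged within each group before the log2 step. The estimates, SEs and p-values of single genes count replicates 4 and 5 as separate libraries, so those p-values may be too small. All fold changes are differences on the log2(TPM + 0.1) scale from limma fits over all genes, with Benjamini-Hochberg adjusted p-values, which understates the change of low genes.

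The change from ESC to EB was asked first in Pcgf1 control cells. Without the block, 1 of 87 members was called at adjusted p 0.05, against a background of 24.9% of the 20594 genes tested, and 7 had an unadjusted p under 0.05. With the replicate block, 28 of 87 members (32.2%) fell and 6 (6.90%) rose, against 23.3% and 20.7% of all genes tested. Falls were most frequent in complex IV, with 11 lower and 0 higher of 18 (median log2 difference -0.38), and in complex III, with 4 lower and 1 higher of 8 (median -0.22). Complex I had 7 lower and 2 higher of 36 (-0.06), complex II 3 lower and 2 higher of 8 (-0.14) and complex V 3 lower and 1 higher of 17 (0.02). The median over all members was -0.11 and over all genes -0.03. Among the 80 subunits tested, 27 fell and 3 rose. Neither the complexes nor the members were tested against other genes.

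**Figure D2:**
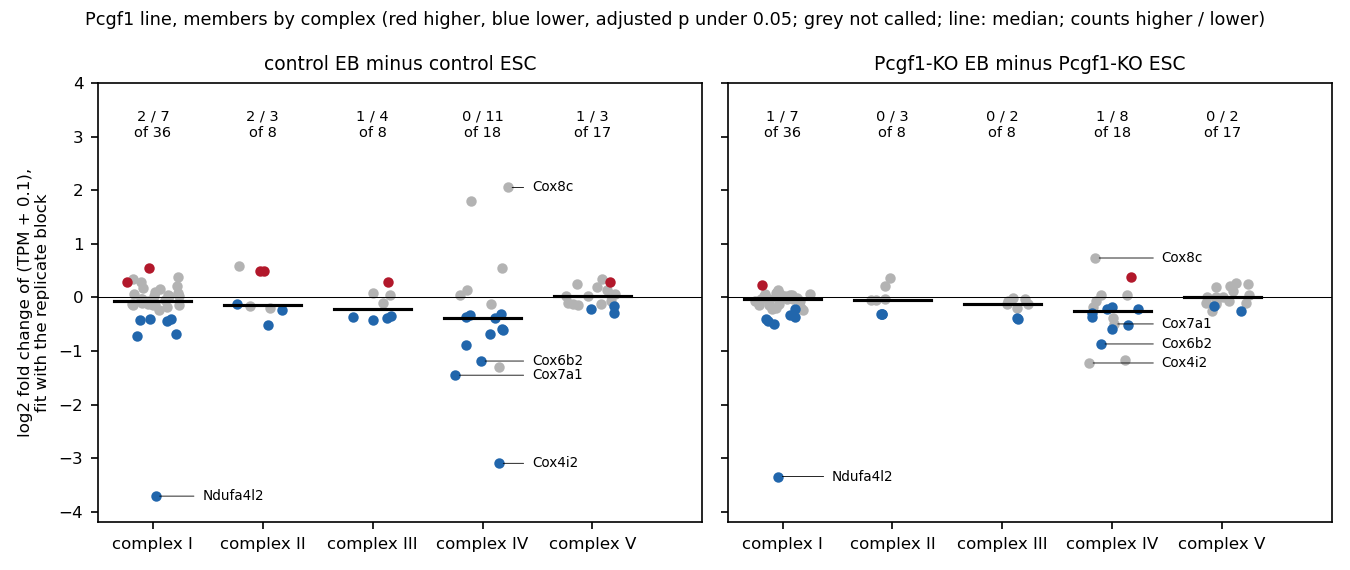
Log2 difference of EB minus ESC (vertical axis, log2(TPM + 0.1) scale, fit with the replicate block) for each member by respiratory complex, in control cells and in Pcgf1-KO cells. Each point is 1 gene, red or blue where it was called higher or lower at adjusted p 0.05 and grey where not, lines are medians, and the numbers count genes called higher and lower. Complex IV holds 11 genes called lower in control cells and 8 in Pcgf1-KO cells.

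The gene called without the block was Ndufa4l2, a relative of the complex IV subunit gene Ndufa4 that is known as a hypoxia-induced gene. It was at 99.7, 140, 135 and 105 TPM in control ESC replicates 1 to 4, and at 5.39, 3.01, 2.95, 64.3 and 63.3 TPM in control EB replicates 1 to 5. All EB values were below all ESC values, but replicates 4 and 5 fell far less than replicates 1 to 3. The log2 difference was -3.35 (SE 1.01, adjusted p 0.0202) without the block and -3.71 (SE 0.84, adjusted p 0.00211) with it. The call was lost without control ESC replicate 2 (adjusted p 0.0501), control EB replicate 2 (0.055) or control EB replicate 3 (0.0561). With replicates 1, 4 and 5 alone and the block, the difference was -2.16 (adjusted p 0.106). The gene lies at chr10:126951995-126954208 on the plus strand (mm9) and overlaps Shmt2 on the other strand, and since strand use in counting is not given, their reads may not be separable.

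Cox5a, a structural subunit of complex IV, was the subunit gene with the smallest adjusted p. It was at 718, 212, 197 and 638 TPM in control ESC replicates 1 to 4 and at 399, 93.8, 116, 366 and 367 TPM in control EB replicates 1 to 5. The gene lies at chr9:57369039-57380231 on the plus strand (mm9), with the lincRNA Gm17596 on the other strand. Within each of the 4 pairs of the same number the EB library was lower, although the EB values of replicates 1, 4 and 5 exceeded the ESC values of replicates 2 and 3. The log2 difference was -0.89 (SE 0.08, adjusted p 7.92e-07) with the block and -0.72 (SE 0.64, adjusted p 0.46) without it.

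Cox6a1, another small structural subunit, was at 588, 538, 514 and 768 TPM in the control ESCs and at 345, 356, 357, 545 and 554 TPM in the control EBs, a difference of -0.59 (SE 0.07, adjusted p 7.52e-06) with the block. Cox8a was at 695, 301, 269 and 709 TPM against 373, 145, 195, 528 and 573 TPM (-0.68, SE 0.10, adjusted p 9.32e-05). Cox6b1 was at 446, 184, 174 and 510 TPM against 292, 122, 131, 307 and 291 TPM (-0.61, SE 0.09, adjusted p 3.81e-05). Each was lower in all 4 pairs, whereas none was called without the block. Cox4i1, the main form of subunit IV, fell less, from 823, 573, 515 and 874 TPM to 638, 422, 408, 667 and 736 TPM (-0.37, SE 0.06, adjusted p 0.000208). Cox6c (-0.33, adjusted p 0.00326), Cox7b (-0.31, adjusted p 0.0102) and Cox7a2l, a supercomplex assembly factor (-0.39, adjusted p 0.000433), made up the rest of the broadly expressed genes that fell. Cox5b (0.05, adjusted p 0.691), which encodes the zinc-binding subunit, and Cox7a2 (-0.13, adjusted p 0.373) were not called. Cox7c, whose product is a small membrane subunit, was at 1038, 325, 314 and 918 TPM against 1080, 329, 354, 1085 and 1166 TPM.

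**Figure D3:**
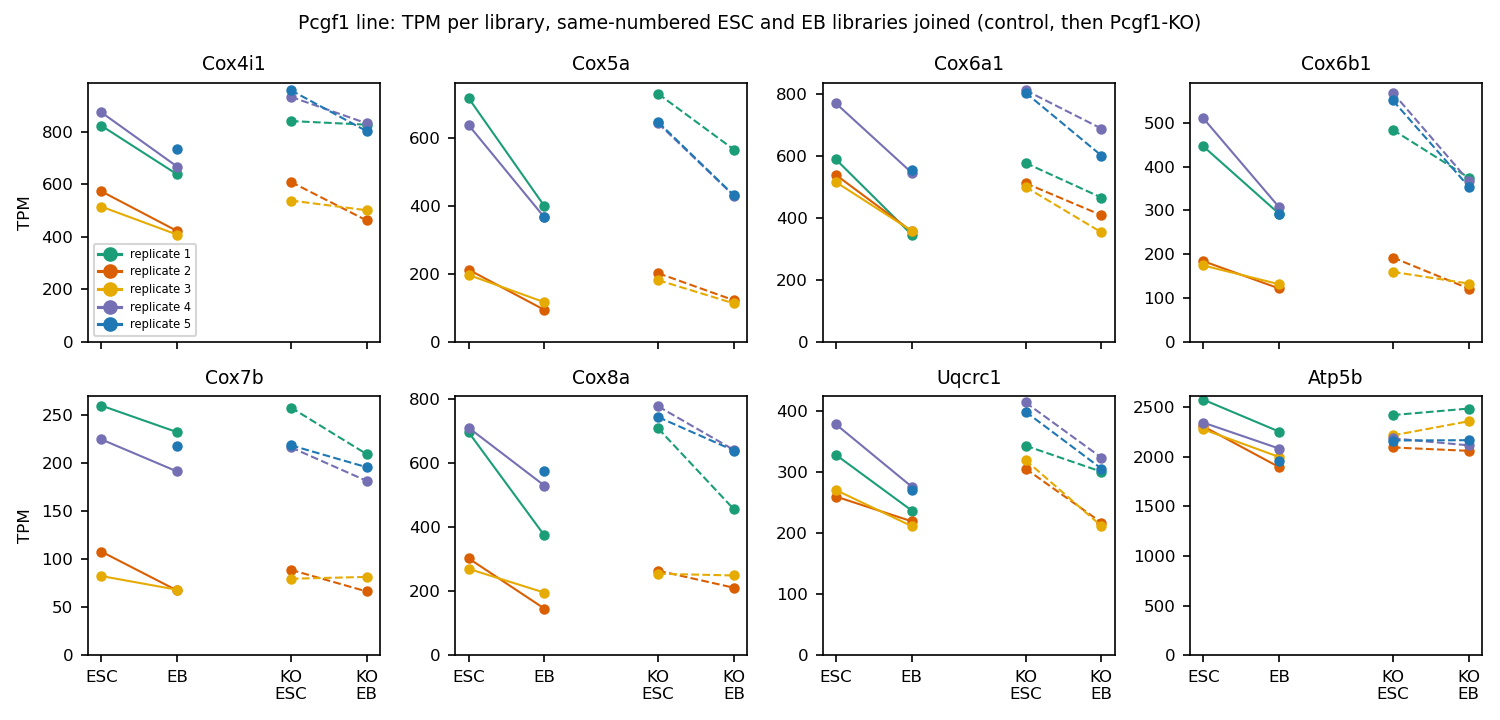
TPM (linear axes from 0) of Cox4i1, Cox5a, Cox6a1, Cox6b1, Cox7b, Cox8a, Uqcrc1 and Atp5b in the 19 libraries of the Pcgf1 line, by group, with ESC and EB libraries of the same replicate number in 1 colour and joined (control EB replicate 5 has no ESC partner). Control EB Cox5a lies below control ESC Cox5a in each of the 4 pairs, while its replicates differ by more than the stages do.

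Of the 7 alternative isoforms of complex IV, 3 fell with the block: Cox6b2, Cox7a1 and Cox4i2. Cox6b2 was at 164, 132, 113 and 184 TPM in the control ESCs and at 71, 39.5, 37.7, 138 and 143 TPM in the control EBs (-1.19, SE 0.21, adjusted p 0.000355 with the block). Cox7a1 was at 88.6, 31.3, 38.8 and 65.6 TPM against 32.3, 7.92, 15.5, 31.9 and 35.4 TPM (-1.45, SE 0.30, adjusted p 0.00112). Cox4i2, known as the oxygen-sensitive form, was at 5.54, 4.09, 7.03 and 6.92 TPM against 1.59, 0, 0.78, 1.31 and 1.26 TPM (-3.10, SE 1.00, adjusted p 0.0205), with no overlap between the groups. Without the block, the adjusted p-values were 0.143, 0.151 and 0.0691.

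As a share of isoform plus partner, Cox7a1 averaged 25.9% ± 5.6 (SD, n = 4) of Cox7a1 and Cox7a2 in control ESCs and 12.6% ± 2.6 (n = 5) in control EBs. Cox6b2 averaged 33.6% ± 8.1 and 26.0% ± 5.7 of Cox6b1 and Cox6b2, and Cox4i2 0.88% ± 0.32 and 0.16% ± 0.09 of Cox4i1 and Cox4i2. Ndufa4l2 averaged 31.3% ± 15.9 and 6.37% ± 6.58 of Ndufa4 and Ndufa4l2. These shares divide values of the same library. Cox7b2 (1.80, adjusted p 0.147), Cox8c (2.05, adjusted p 0.0504), Cox8b (-1.29, adjusted p 0.198) and Cox6a2 (0.54, adjusted p 0.69), all near 0 TPM, were not called, nor was Ndufa4 (-0.07, adjusted p 0.526). The 3 genes of the ATP synthase c-ring, Atp5g1 (0.34, adjusted p 0.0857), Atp5g2 (0.07, adjusted p 0.408) and Atp5g3 (0.05, adjusted p 0.784), were not called either.

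**Figure D4:**
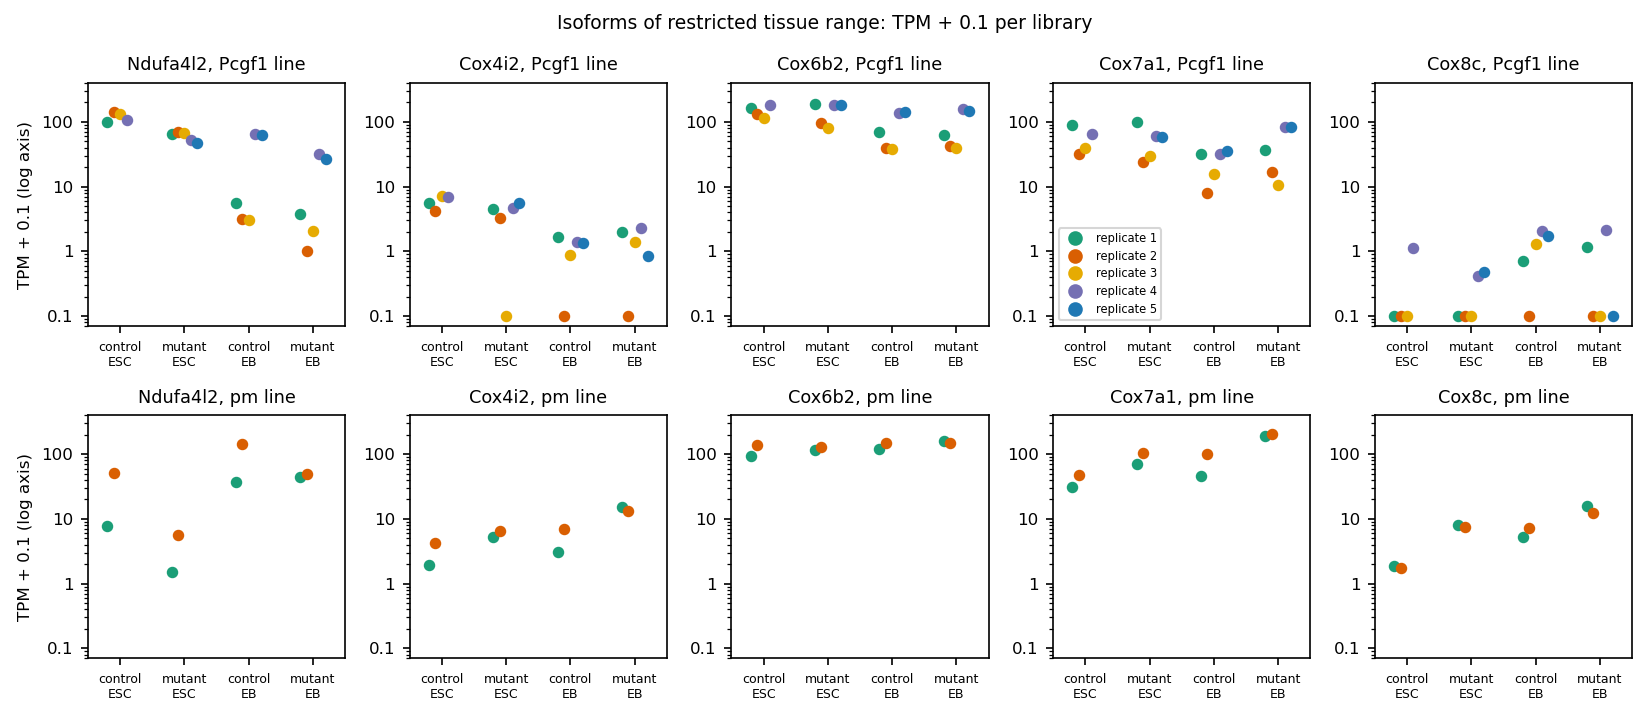
TPM + 0.1 (log axis) of Ndufa4l2, Cox4i2, Cox6b2, Cox7a1 and Cox8c in each library of the Pcgf1 and pm lines, by group. Each point is 1 library, coloured by replicate number. In the Pcgf1 line Cox7a1 lies between 31.3 and 88.6 TPM in control ESCs and between 7.92 and 35.4 TPM in control EBs, and in the pm line it lies at 190 and 204 TPM in mutant EBs.

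MEF feeders were present in the ESC cultures only. The summed level of 10 MEF markers was 196 to 286 TPM in control ESCs, 150 to 227 TPM in Pcgf1-KO ESCs, and lower in both sets of EBs (24.8 to 48.5 TPM for controls, 8.11 to 15.8 TPM for Pcgf1-KO). Of the 10 markers, 5 were lower (Col1a1, Col1a2, Col3a1, Pdgfrb and Postn) and 2 higher (Dcn and Thy1) in control EBs than in control ESCs. Lum and Twist2 were at most 0.273 and 1.73 TPM in the line, and Dcn at most 0.536 TPM in control ESCs. Their part in the falls above was not tested. In bulk RNA, fewer cells of a type and less RNA per cell cannot be told apart.

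Sequences upstream of the start are shown for 4 of the complex IV genes that fell with the block, since genes that move together may be compared by what lies there. They are the 250 bases before the RefSeq gene start (GRCm38.p6), 5′ to 3′ on the gene's strand, with capitals marking a match to the letters of an NRF1 motif (GCATGCGC) or an ETS motif (CCGGAAG) on either strand.
Cox5a, chr9:57520982-57521231, plus strand: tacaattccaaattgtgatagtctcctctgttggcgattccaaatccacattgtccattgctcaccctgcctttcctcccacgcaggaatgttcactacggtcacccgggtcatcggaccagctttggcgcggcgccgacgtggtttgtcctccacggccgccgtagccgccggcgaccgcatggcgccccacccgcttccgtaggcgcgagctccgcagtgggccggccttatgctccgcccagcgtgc
Cox6a1, chr5:115348959-115349208, minus strand: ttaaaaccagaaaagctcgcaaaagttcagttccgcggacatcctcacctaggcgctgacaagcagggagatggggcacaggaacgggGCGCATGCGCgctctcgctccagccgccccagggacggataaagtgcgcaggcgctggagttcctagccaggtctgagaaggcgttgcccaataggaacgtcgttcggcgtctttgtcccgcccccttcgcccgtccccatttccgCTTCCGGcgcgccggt
Cox6b1, chr7:30626115-30626364, minus strand: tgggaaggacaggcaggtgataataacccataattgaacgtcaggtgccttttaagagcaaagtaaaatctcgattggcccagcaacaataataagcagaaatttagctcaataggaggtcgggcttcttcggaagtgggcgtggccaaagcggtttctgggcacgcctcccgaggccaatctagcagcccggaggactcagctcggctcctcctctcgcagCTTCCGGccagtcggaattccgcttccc
Cox7a1, chr7:30183921-30184170, plus strand: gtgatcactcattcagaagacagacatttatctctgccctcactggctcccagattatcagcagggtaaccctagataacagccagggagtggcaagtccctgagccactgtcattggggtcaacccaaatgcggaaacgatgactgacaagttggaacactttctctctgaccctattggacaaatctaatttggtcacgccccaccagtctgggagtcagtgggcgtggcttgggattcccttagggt
The Cox6a1 window holds an NRF1 match read on both strands, which overlap, and an ETS match near the start. The Cox6b1 window holds an ETS match, and those of Cox5a and Cox7a1 hold neither. The windows of Cox8a, Cox7b and Cox6b2, which also fell with the block and are not shown, hold neither as well.

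Of the 88 members, 70 had an entry among the 27025 RefSeq promoters. The NRF1 letters were in 8 of these 70 (11.4%; Ndufa8, Sdhb, Atp5k, Cox6a1, Atp5l, Ndufa6, Atp5g2 and Ndufa11) and in 2.32% of all promoters, the ETS letters in 13 (18.6%) and in 7.05%. The letters of an ERR motif (TCAAGGTCA) were in 1 (1.43%, Atp5g3) and in 0.366%, and those of a YY1 motif (AAGATGGC) in 0 and in 1.59%. Among the 13 complex IV genes with an entry, 1 held the NRF1 letters and 2 the ETS letters. The median GC content was 56.4% in the members' windows and 52.0% in all. A match is a description and not a binding site.

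In complex III, Uqcrc1, a core subunit, was at 329, 260, 271 and 379 TPM in the control ESCs and 237, 219, 212, 276 and 271 TPM in the control EBs (-0.38, SE 0.063, adjusted p 0.000154 with the block). Uqcrb (-0.42, adjusted p 0.0084), Uqcrc2 (-0.37, adjusted p 0.00401) and Uqcr10 (-0.34, adjusted p 0.00714) fell too. Uqcrq rose (0.29, adjusted p 0.0285). Uqcrfs1, which carries the Rieske iron-sulfur centre, differed by 0.04 and was not called.

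In complex I, apart from Ndufa4l2, which its symbol places here, the genes that fell encode accessory subunits. These were Ndufb4 (-0.71, SE 0.14, adjusted p 0.000633), Ndufv3 (-0.68, SE 0.12, adjusted p 0.000377), Ndufa6 (-0.45, adjusted p 0.0114), Ndufb5 (-0.42, SE 0.08, adjusted p 0.000374), Ndufa3 (-0.40) and Ndufb11 (-0.40). Ndufb5 was at 187, 80.7, 72.7 and 141 TPM in the control ESCs and at 123, 54.5, 55.6, 118 and 126 TPM in the control EBs. Ndufa2 (0.54, adjusted p 0.0327) and Ndufa5 (0.29, adjusted p 0.0419) rose. Core subunits that were not called are Ndufs1 (0.10), Ndufs3 (0.06), Ndufs7 (-0.13), Ndufs8 (0.15), Ndufv1 (0.05) and Ndufv2 (-0.24, adjusted p 0.0544).

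In complex II, which also acts in the citric acid cycle, the membrane anchor Sdhc fell by 0.51 on the log2 scale (SE 0.09, adjusted p 0.000316). The iron-sulfur subunit Sdhb (-0.24, adjusted p 0.0239) and the flavoprotein Sdha (-0.13, adjusted p 0.0482) fell by less, and Sdhd (-0.15, adjusted p 0.105) was not called. The assembly factors Sdhaf1 (0.49, adjusted p 0.0152) and Sdhaf2 (0.49, adjusted p 0.0153) rose, and these 2 are no subunits. In complex V, Atp5b was at 2579, 2309, 2279 and 2347 TPM in the control ESCs and at 2256, 1898, 2000, 2085 and 1960 TPM in the control EBs (-0.21, SE 0.06, adjusted p 0.0119). Atp5c1, the central gamma subunit (-0.30, adjusted p 0.0117), and Atp5h (-0.17, adjusted p 0.039) also fell, Atp5sl rose (0.28, adjusted p 0.0247) and Atp5a1 was not called (-0.13, adjusted p 0.109). A list of 18 genes was made of catalytic and core subunits, and it also holds others such as the structural subunit gene Cox5a. Of these 18, 7 fell with the block (Sdha, Sdhb, Sdhc, Uqcrc1, Cox5a, Atp5b and Atp5c1) and 0 rose. The background was 23.3% lower and 20.7% higher of all genes tested.

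Counted by pairs of the same number, 30 members were lower and 6 higher in EB in all 4 pairs, against 24.2% lower and 22.0% higher of all genes. By complex, 9 were lower in complex I, 4 in complex II, 4 in complex III, 11 in complex IV and 2 in complex V. With replicates 1, 4 and 5 alone and the block, 19 fell and 1 rose (background 15.2% and 13.2%), 8 of those that fell being in complex IV. With replicates 2 and 3 alone, 18 fell and 6 rose (background 21.0% and 19.3%), 10 of those that fell being in complex IV. Of the 28 genes that fell with the block, 17 were called in the first of these fits and 18 in the second, and all 28 kept their sign in both. With replicates 4 and 5 averaged, 26 fell and 6 rose (background 21.9% and 20.3%). The complex IV share of the member sum was 21.0 to 21.4% in control ESC replicates 2 and 3 and 17.0 to 17.5% in their EB partners.

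In Pcgf1-KO cells the same change of stage was called for 1 of 87 members without the block (background 18.3%; 3 had an unadjusted p under 0.05). It was again Ndufa4l2, at 65.5, 70.2, 66.7, 52.5 and 46.8 TPM in Pcgf1-KO ESC replicates 1 to 5 and at 3.73, 0.925, 1.98, 32.2 and 26.6 TPM in Pcgf1-KO EB replicates 1 to 5 (-3.34, SE 0.95, adjusted p 0.019). Without Pcgf1-KO EB replicate 2 or 3 its adjusted p was 0.0583 or 0.0553. With the block, 22 members (25.3%) fell and 2 (2.30%) rose, against 20.0% and 16.8% of all genes. Complex IV had 8 lower and 1 higher of 18, and complex I had 7 lower and 1 higher of 36.

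Cox5a was at 730, 202, 181, 643 and 647 TPM in the Pcgf1-KO ESCs and at 566, 122, 113, 430 and 431 TPM in the Pcgf1-KO EBs (-0.59, adjusted p 2.41e-05 with the block). It was lower in each of the 5 pairs. Cox6b2 (-0.87, adjusted p 0.00282), Cox6b1 (-0.51, adjusted p 0.000127), Uqcrc1 (-0.40, adjusted p 6.73e-05) and Cox6a1 (-0.36, adjusted p 0.000404) fell as well. Cox7c (0.37, adjusted p 0.00268) and Ndufs3 (0.24, adjusted p 0.0124) rose. Cox7a1, at 99.7, 24, 30, 61.5 and 57.6 TPM against 37.4, 17, 10.4, 83.1 and 82 TPM, was not called: it was lower in the EB libraries of replicates 1 to 3 and higher in those of replicates 4 and 5. In all 5 pairs, 23 of 87 members were lower and 3 higher, against 20.9% and 17.2% of all genes.

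Loss of PCGF1 was compared within each stage. In ESCs, 0 of 87 members were called without the block (limma; 1 with an unadjusted p under 0.05, background 0.641%), and the median difference was 0.11 over the members and -0.02 over all genes. With the block, Uqcrq (0.55, SE 0.10, adjusted p 0.00636) and Ndufa8 (0.38, SE 0.09, adjusted p 0.0272) were higher and Ndufv3 (-0.46, SE 0.12, adjusted p 0.0427) lower in Pcgf1-KO ESCs, which is 3 of 87 (3.45%) against a background of 5.31%. Uqcrq was at 182, 114, 101 and 336 TPM in the control ESCs and at 275, 154, 176, 424 and 437 TPM in the Pcgf1-KO ESCs, higher in all 4 pairs. With replicates 4 and 5 averaged, 1 member was called (Uqcrq; background 3.23%). With replicates 1, 4 and 5 alone and the block 0 were called (background 0.103%), and with replicates 2 and 3 alone 2 were (Ndufa8 and Ndufv3; background 2.12%).

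In EBs, 0 members were called without the block (limma; 0 with an unadjusted p under 0.05, background 1.95%), with a median of 0.04 over the members and -0.03 over all genes. With the block, 6 of 87 (6.90%) were higher in Pcgf1-KO EBs and 0 lower, against a background of 10.4%: Cox8a (0.32, adjusted p 0.0473), Ndufs7 (0.27, adjusted p 0.0389), Ndufb5 (0.27, adjusted p 0.0247), Cox5a (0.26, adjusted p 0.0405), Cox4i1 (0.25, adjusted p 0.0125) and Cox6a1 (0.21, adjusted p 0.0451). Cox4i1 was at 638, 422, 408, 667 and 736 TPM in the control EBs and at 827, 462, 501, 832 and 802 TPM in the Pcgf1-KO EBs. Each Pcgf1-KO EB library was above its control of the same number, by different amounts. The control EB libraries also enter the comparison of control EBs with ESCs, so the values of the same genes there are not independent of these. With replicates 4 and 5 averaged, 2 were called (Cox4i1 and Ndufb5; background 6.1%), with replicates 1, 4 and 5 alone 3 (Cox5a, Cox6b1 and Uqcrc1; background 7.24%), and with replicates 2 and 3 alone 0 (background 1.69%).

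Whether the effect of PCGF1 loss differs between stages was tested as an interaction. Without the block 0 members were called (limma; 0 with an unadjusted p under 0.05, background 0.00486%). With it 1 was, Ndufb5 (0.45, SE 0.10, adjusted p 0.0432, background 1.62%), and with replicates 4 and 5 averaged 0 were. In the Pcgf1-KO libraries Ndufb5 was at 175, 60.6, 64.8, 141 and 130 TPM in ESCs and at 174, 66.8, 70.1, 130 and 133 TPM in EBs. Its level fell with the block in control EBs and was not called between Pcgf1-KO ESCs and EBs. The gene lies at chr3:32635912-32650488 (mm9), with Mrpl47 on the other strand.

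The pm line has 2 libraries per group, and its member sums were higher: 2.83 to 3.05% of TPM in control ESCs, 2.88 to 3.05% in mutant ESCs, 2.60 to 2.69% in control EBs and 2.83 to 3.13% in mutant EBs. From control ESC to control EB, 2 of 87 members were called, against 4.73% of all genes tested, and 25 had an unadjusted p under 0.05. Uqcrc1 was at 380 and 385 TPM in the control ESCs and at 270 and 255 TPM in the control EBs, a fall of 0.54 on the log2 scale (SE 0.10, adjusted p 0.0282). It lies at chr9:108838661-108851685 on the plus strand (mm9). Cox8c, a testis-type isoform, was at 1.74 and 1.64 TPM against 5.10 and 7.03 TPM, a rise of 1.77 (SE 0.27, adjusted p 0.0154) at levels near 0. Of the 8 fits that left out 1 library, 6 lost each of these calls, and those without a mutant EB library kept them. Of the 87 members, 62 were below 0, with medians of -0.26 in complex III (8 of 8 below 0), -0.22 in complex V, -0.06 in complex I and -0.03 in complex IV, and of -0.14 over all members against 0 over all genes tested.

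Cox5a in the pm line was at 715 and 875 TPM in control ESCs and at 550 and 529 TPM in control EBs (-0.55, adjusted p 0.0528). Ndufa4l2 differed widely between replicates, at 7.75 and 51.9 TPM in control ESCs and 37.7 and 144 TPM in control EBs, a difference of 1.87 (adjusted p 0.351) whose sign is opposite to that in the Pcgf1 line. The difference between the lines was not tested. In mutant cells the change of stage gave 0 calls among the members (limma; 9 with an unadjusted p under 0.05, background 0.133%), and Ndufa4l2 was at 1.4 and 5.49 TPM in mutant ESCs against 43.6 and 49.1 TPM in mutant EBs (4.00, adjusted p 0.256).

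Between pm mutant and control ESCs, Cox8c was higher in the mutants, at 7.88 and 7.40 TPM (2.11, SE 0.27, adjusted p 0.0179), the 1 call among the members against a background of 2.54% (4 had an unadjusted p under 0.05), and leaving out any 1 of the 8 libraries lost it. Between mutant and control EBs 0 members were called (limma; 24 with an unadjusted p under 0.05, background 4.53%), with a median of 0.14 over the members and 0.10 over all genes. Values of 3 complex IV genes, chosen after their values were seen, are given here. Cox7a1 was at 45.6 and 100 TPM in control EBs and 190 and 204 TPM in mutant EBs (1.54, adjusted p 0.0662), Cox8c at 15.8 and 12.1 TPM in mutant EBs (1.20, adjusted p 0.0551) and Cox5a at 790 and 765 TPM in mutant EBs (0.53, adjusted p 0.061). Cox7a1 averaged 11.2% of Cox7a1 and Cox7a2 in control ESCs, 21.4% in mutant ESCs, 20.0% in control EBs and 38.5% in mutant EBs. The MEF marker sum was 39.9 to 44.3, 70.9 to 74.2, 31.1 to 35.3 and 76.4 to 77.8 TPM in the same order, higher in the mutants of each stage as was Cox7a1, and its part was not tested. The interaction called 0 members (limma; 3 with an unadjusted p under 0.05, background 0.00986%).

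In the 4 lines whose labels and data names differ, the members' values are given with no direction. Klf4, an ESC marker, was at 9.90 and 7.38 TPM in Ring1A/B libraries labelled mutant ESC. It was at 665 and 709 TPM in those labelled control EB. The groups compared here need not be the stages they name, so the counts measure neither a stage nor a mutant effect. In the Ring1A/B line, 49 of 87 members (56.3%) differed between the libraries labelled control EB and control ESC, 58 (66.7%) between those labelled mutant and control ESC and 38 (43.7%) between those labelled mutant and control EB, against 43.2%, 48.8% and 33.3% of all genes. Cox5a was there at 644 and 591 TPM in libraries labelled control ESC, 338 and 345 TPM labelled mutant ESC, 634 and 595 TPM labelled control EB and 456 and 469 TPM labelled mutant EB. In the Pcgf3/5 line, 0 members were called in each of these comparisons (limma; 21, 0 and 5 with an unadjusted p under 0.05, background 0.0601%, 0.0401% and 0.0301%). Its libraries labelled mutant ESC held 830 and 447 TPM of Cox5a and those labelled mutant EB 460 and 852 TPM, so that libraries of the same labelled group differed about as much as any others.

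The Pcgf2/4 and Pcgf6 lines also had 0 members called in the 3 comparisons (limma; 3, 0 and 1, and 2, 0 and 0 with an unadjusted p under 0.05, background 0.0% in each). The ESC marker sums of the 2 libraries labelled control ESC were 360 and 1568 TPM in Pcgf2/4 and 442 and 1862 TPM in Pcgf6. With libraries so unlike under the same label, 0 calls cannot show that the members do not differ. The same limit holds for the 0 calls in the Pcgf3/5 line. Cox5a was at 911 to 1794 TPM over the 8 Pcgf2/4 libraries and at 957 to 1711 TPM over the 8 Pcgf6 libraries. Member sums were 2.15 to 2.46% of TPM in the Ring1A/B line, 3.12 to 4.09% in Pcgf2/4, 2.12 to 2.64% in Pcgf3/5 and 3.16 to 4.43% in Pcgf6.

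Other genes of respiration and energy supply were counted in control EBs against control ESCs of the Pcgf1 line, without the block. The background there was 24.9% of all genes called in either direction. Of 37 assembly factors, 4 rose and 2 fell, among them Coa6 (0.78, adjusted p 0.0135) and Tmem126b (0.77, adjusted p 0.00275), which help build complexes IV and I, and Sco1 (-0.51, adjusted p 0.00182) and Afg3l2 (-0.41, adjusted p 0.0399). Of 13 citric acid cycle genes, 1 rose (Mdh2, 0.65, adjusted p 0.00426) and 2 fell, among them Idh3b (-0.46, adjusted p 0.0477). Of 6 genes of the complexes that the symbol rule misses, 0 were called, and 3 rose with the block. Mitochondrial ribosomal protein genes went up with the block in 35 of 74 cases and down in 0 (median 0.24), and cytosolic ones in 12 and 2 of 84 (median 0.04), against 20.7% and 23.3% of all genes.

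Against the same background of 24.9%, glycolysis had 1 gene higher and 8 lower of 23. Hk1, the first enzyme of the path, was at 113, 218, 252 and 108 TPM in control ESCs and at 20.3, 30.6, 25.1, 34.6 and 32.5 TPM in control EBs (-2.51, adjusted p 4.77e-06), with no overlap. Pfkp (-2.39, adjusted p 6.42e-05) fell, and the lactate transporter Slc16a1 (0.35, adjusted p 0.0322) rose. Of 23 regulators of mitochondrial genes, 5 rose and 3 fell. Esrrb, an orphan receptor of the naive state, fell from 301, 532, 628 and 341 TPM to 39.4, 76, 38.3, 105 and 95.1 TPM (-2.73, SE 0.37, adjusted p 2.87e-05), and Tfb2m, a mitochondrial transcription factor, fell by 0.62 (adjusted p 0.0173). Myc rose from 3.82, 8.49, 7.34 and 5.41 TPM to 35, 104, 97.8, 24.6 and 28 TPM (2.97, adjusted p 0.000165) and Lin28b rose by 2.60 (adjusted p 4.86e-05).

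In Pcgf1-KO EBs against Pcgf1-KO ESCs, 2 assembly factors rose (Tmem126b, 1.44, and Ecsit, 0.46), 0 citric acid cycle genes were called, and glycolysis had 2 genes higher and 8 lower, with Hk1 at -2.20 and Slc2a3 at -2.14 on the log2 scale. The background of this comparison was 18.3%. Against control ESCs, Pcgf1-KO ESCs had Ldhb, a lactate dehydrogenase, lower at 302, 270, 281, 290 and 292 TPM against 931, 802, 744 and 638 TPM (-1.43, adjusted p 0.00993), the 1 glycolysis gene called. All 23 genes of that list were below 0 (median -0.32). Against control EBs, Pcgf1-KO EBs had Ldha lower at 1008, 983, 1199, 872 and 877 TPM against 1750, 1675, 1822, 1631 and 1571 TPM (-0.78, adjusted p 0.0139). Epas1, which encodes the hypoxia factor HIF-2 alpha, was at 92, 368, 246, 128 and 133 TPM against 14.5, 65.1, 33.2, 45.2 and 44.9 TPM in those EBs (2.22, adjusted p 0.00967). Neither group overlapped its control for Ldha or Epas1.

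In the pm line, control EBs against control ESCs had 3 glycolysis genes higher and 0 lower (Pfkm, 1.74, and Slc16a3, 1.49, were the largest), 3 regulators higher and 1 lower (Epas1, 1.35, and Esrrb, -1.44, among them), and 1 assembly factor lower (Coa5, -0.89), against a background of 4.73% of all genes. Atpif1, the inhibitor of ATP synthase, rose by 0.73 there, from 140 and 143 TPM to 231 and 238 TPM. Between pm mutant and control EBs, where the background was 4.53% of all genes, it was lower in the mutants, at 135 and 150 TPM (-0.72). Cycs, which encodes cytochrome c, was higher in mutant EBs, at 203 and 215 TPM against 151 and 148 TPM (0.48).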

How the data were processed

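RNA was sequenced from 59 libraries. Per the paper's methods and the submitters' processing notes, reads were aligned to mm9 with STAR 2.5.2b and counted over exons. The authors deposited TPM per gene and library, and the step from counts to TPM is not given in the sources used here, nor is strand use. Depth is unknown, so no counting error is given. Groups came from the labels alone.

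Each line was fitted with limma 3.58.1 (R 4.3.3) on log2(TPM + 0.1), with a mean-variance trend, 4 groups, and Benjamini-Hochberg adjustment over all genes above 0 in at least 1 of its libraries (20594 in the Pcgf1 line and 20279 in pm), two-sided at 0.05. The steps were checked on simulated data. Shares and sums used Python 3.11.15. Same-numbered Pcgf1 libraries correlated in their deviations from group means at r 0.317 to 0.653 (median 0.433, 27 pairs), the pairing coming from the replicate numbers in the labels. For a Pcgf1-KO EB library the title gives replicate 4 and another field 5, and the title was followed. Library runs were read from the identifiers in the file headers. Positions were taken from GENCODE vM1 (mm9) and promoters from RefSeq (GRCm38.p6).

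Members and lists were chosen with earlier results of these data known. Genes were named as the 3 highest and 3 lowest members called per comparison, the isoform and catalytic lists, and the 2 highest and 2 lowest called genes of the other lists; further genes were chosen after their values were seen. Alternatives were a pseudocount of 1, a filter on mean TPM, median-of-ratios scaling, quantile normalization, blocks for replicate or run, parts of the replicates, and leaving out each library. The last 7 variants of the Pcgf1 fits (runs, replicate subsets, pairs, and their combinations with the block) were chosen after seeing the data. Values of some genes are not reported here.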

Additional observations from a re-analysis of the deposited data

Results flagged for a closer look

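Among the groups of 4 to 10 libraries of the Pcgf1 line, 164 combinations of gene and group were examined with Dixon's criterion for a single distant library, which chance meets in about 1 of 20 groups. One was met: Cox8c in control ESC replicate 4, at 1.023 TPM, with the other 3 libraries of the group at 0. With those 3 at 0, any value above 0 in the fourth meets the criterion, so the chance rate does not apply here.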

How the results depend on the processing

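No result that passed its test changed sign under an alternative. In the Pcgf1 line same-numbered libraries were paired by the replicate number in their labels. Whether they share more than that number and the library run was not tested. The counts of members called rested on the replicate block. The share of all genes called is not set beside the counts in this section. They show how far the counts depend on the setting and are not read as a result about the members. For control EBs against control ESCs (1 called without the block), 34 were called with the replicate block, 32 with a block for the library run, 6 with replicates 1, 4 and 5 alone, 24 with replicates 2 and 3 alone, 30 and 34 with the block after median-of-ratios scaling and quantile normalization, 20 with the block in replicates 1, 4 and 5, 32 with replicates 4 and 5 averaged, and 2 each with a pseudocount of 1, median-of-ratios scaling or quantile normalization and no block. For Pcgf1-KO EBs against Pcgf1-KO ESCs (1), the counts were 24, 26, 5, 15, 19, 22, 20 and 19 in that order of the first 8 settings, and 2 with genes of mean TPM of at least 1. For Pcgf1-KO against control ESCs (0), they were 3 with either block, 2 with replicates 2 and 3 alone, 2 with the block and either scaling and 1 with replicates 4 and 5 averaged. For Pcgf1-KO against control EBs (0), they were 6 with either block and with the block after median-of-ratios scaling, 1 after quantile normalization, 3 with the block in replicates 1, 4 and 5, and 2 with replicates 4 and 5 averaged. For the interaction (0), 1 was called with either block and with the block after quantile normalization. Leaving out 1 library at a time gave 0 to 2 calls in the first and second comparisons and 0 in the other 3. The 0 came without control ESC replicate 2, control EB replicate 2 or control EB replicate 3 in the first, and without Pcgf1-KO EB replicate 2 or 3 in the second.

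In the pm line, same-numbered libraries correlated at r 0.106 to 0.381, and the number alone is shared. With 2 libraries per group, the 2 pairs of a comparison give the same r by construction. With the replicate block, the members called went from 2 to 6 (control EB against ESC), 0 to 1 (mutant EB against ESC), 1 to 3 (mutant against control ESC) and 0 to 7 (mutant against control EB). The first count was 1 with median-of-ratios scaling, the third 0 with quantile normalization, and the fourth 4 with genes of mean TPM of at least 1 and 1 with median-of-ratios scaling. Leaving out 1 library gave 0 to 2, 0 to 1, 0 to 1 and 0 in that order, the lone library of a group being assumed to vary like the others. In the Ring1A/B line, leaving out 1 library gave 30 to 47, 38 to 53 and 22 to 30 members called in the 3 labelled comparisons. For these pm and Ring1A/B settings too, the share of all genes called is not given, so a general rise in calls cannot be told from one of the members.

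Some complex sums (percent of TPM) moved by more than the spread between replicates. Without the symbols that are no subunits, complex II was 0.0628 in Pcgf1 control EBs and 0.0811, 0.0731, 0.0709 and 0.0750 in the pm line (ESC control and mutant, then EB control and mutant), and complex IV was 0.642 in pm control EBs. With median-of-ratios scaling, pm control ESCs had 0.309 in complex III and 1.11 in complex V; pm mutant ESCs 0.720, 0.0821, 0.272 and 1.02 in complexes I, II, III and V; pm control EBs 0.741, 0.0878, 0.703 and 0.977 in complexes I, II, IV and V; and pm mutant EBs 0.0839 in complex II. The cause of the changes in the counts was not tested. Low isoforms such as Cox8c are limited most by the unknown depth.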
